A study of Homo sapiens with 8 samples.

Results

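Cells of the breast cancer line HCC1937 with and without exogenous BRCA1 were compared at 7 zinc finger loci, ZNF667-AS1, ZNF667, ZNF415, ZNF649, ZNF577, ZNF610 and ZNF826P, out of 18417 genes measured on 8 Affymetrix arrays. The loci were selected on their measured log2 difference between the untreated control cells of the lines, which was large in each, and each was read by the probe set that the platform annotation pairs with that gene alone. All 7 had a probe set and all 7 entered the fit. The arrays compared HCC1937+BRCA1 cells given COH29, HCC1937+BRCA1 control cells, HCC1937 cells given COH29 and HCC1937 control cells, with 2 arrays per group. HCC1937 carries a truncated BRCA1 and is labelled BRCA1 deficient, and HCC1937+BRCA1 is the same line with exogenous wild-type BRCA1, a DNA repair protein. COH29, an inhibitor of ribonucleotide reductase, was given at 10 µM for 24 h. The treatment protocol in the labels repeats the COH29 dose and time on the control arrays. Their titles and treatment label, which say control, were followed here, and every COH29 effect rests on that reading. The sources used here do not say how the exogenous gene was introduced or whether HCC1937+BRCA1 is a clone, so BRCA1 itself and other differences between the lines cannot be told apart. Nor do they say whether replicate arrays stem from separate cultures, so p-values measure the spread between these arrays, which may be technical.

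Zinc finger proteins of the KRAB type form the largest family of human transcription factors. Their zinc fingers bind DNA, often within transposable elements, and their KRAB domain recruits the co-repressor TRIM28 (KAP1) and the histone methyltransferase SETDB1, which build silent chromatin. Many of their genes lie side by side in clusters on chromosome 19. ZNF667-AS1, also called MORT, is a long non-coding RNA transcribed next to and away from ZNF667, and loss of its transcript together with promoter DNA methylation has been described in breast cancer.

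All 7 loci lie on chromosome 19 in the RefSeq gene table. ZNF577 and ZNF649 are direct neighbours there, with 0 tested genes between them, as are ZNF667 and ZNF667-AS1. ZNF649 and ZNF610 have 11 tested genes between them, ZNF610 and ZNF415 have 17, and ZNF415 and ZNF667 have 104. ZNF826P, a transcribed pseudogene, lies apart, with 558 tested genes between it and ZNF577. The start-site windows of ZNF667-AS1, ZNF667, ZNF415 and ZNF577 follow, as given in RefSeq (GRCh38.p14), from 250 bases before to 50 after the start. They are printed because transcription of these loci, among them ZNF667-AS1 with its large line difference, begins there. Capitals mark every CG dinucleotide, the site of DNA methylation, which reads the same on both strands.
ZNF667-AS1, chr19:56477624-56477923, plus strand: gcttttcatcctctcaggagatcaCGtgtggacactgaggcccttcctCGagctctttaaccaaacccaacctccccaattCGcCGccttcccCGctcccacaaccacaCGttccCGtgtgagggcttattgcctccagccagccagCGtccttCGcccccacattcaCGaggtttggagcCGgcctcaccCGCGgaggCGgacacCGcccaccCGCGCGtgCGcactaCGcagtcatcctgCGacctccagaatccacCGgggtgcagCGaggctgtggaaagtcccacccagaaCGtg
ZNF667, chr19:56477296-56477595, minus strand: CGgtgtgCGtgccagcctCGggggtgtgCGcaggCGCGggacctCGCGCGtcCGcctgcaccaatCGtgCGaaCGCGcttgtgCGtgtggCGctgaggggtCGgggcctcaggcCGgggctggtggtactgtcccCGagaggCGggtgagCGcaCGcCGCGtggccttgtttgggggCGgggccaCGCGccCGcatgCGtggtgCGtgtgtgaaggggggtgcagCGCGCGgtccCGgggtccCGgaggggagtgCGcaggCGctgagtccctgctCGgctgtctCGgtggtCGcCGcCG
ZNF415, chr19:53132861-53133160, minus strand: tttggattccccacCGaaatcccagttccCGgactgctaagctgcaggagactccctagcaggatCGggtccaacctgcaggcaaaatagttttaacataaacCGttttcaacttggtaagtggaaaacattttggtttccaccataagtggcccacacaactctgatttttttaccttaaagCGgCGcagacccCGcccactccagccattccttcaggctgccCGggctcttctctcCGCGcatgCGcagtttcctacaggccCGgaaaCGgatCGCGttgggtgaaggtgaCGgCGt
ZNF577, chr19:51887902-51888201, minus strand: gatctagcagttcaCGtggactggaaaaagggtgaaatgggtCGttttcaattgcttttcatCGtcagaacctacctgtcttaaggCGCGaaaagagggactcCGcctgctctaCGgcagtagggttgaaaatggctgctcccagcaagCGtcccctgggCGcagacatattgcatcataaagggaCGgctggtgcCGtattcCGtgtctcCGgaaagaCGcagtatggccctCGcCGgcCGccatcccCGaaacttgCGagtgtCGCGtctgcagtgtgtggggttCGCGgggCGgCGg
The ZNF667-AS1 and ZNF667 start sites of these windows are 529 bases apart and point away from each other, with 28 bases between the windows. The annotated spans of the genes overlap by 220 bases through ZNF667 transcripts that start farther upstream. The strand of the array's probes was not checked, so signal shared between these genes was not tested.

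The ZNF667 window held 42 CG dinucleotides, a count reached by 5.85% of the 35116 RefSeq windows. The ZNF577 window held 25, the ZNF667-AS1 window 24 and the ZNF415 window 17, counts reached by 32.0%, 33.9% and 46.0% of all windows. A further ZNF667-AS1 window that starts 250 bases downstream held 21. For comparison, the median was 22 over 588 windows of other zinc finger genes and 14 over all windows, of which 96.0% held at least 1 CG. These counts describe the sequence only. DNA methylation was not measured in this study's arrays.

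**Figure D1:**
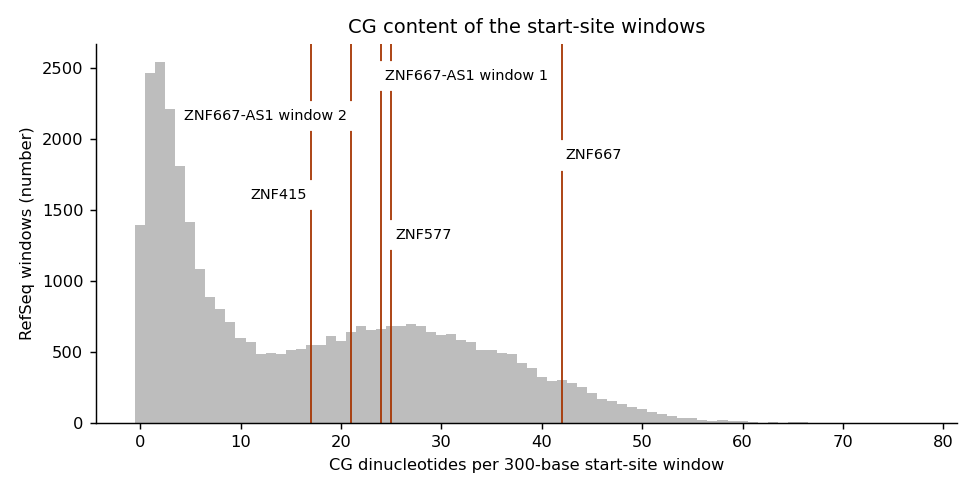
Number of CG dinucleotides (x axis) in the 300-base start-site windows of RefSeq genes, with the number of windows on the y axis. Lines mark the windows of ZNF667-AS1, ZNF667, ZNF415 and ZNF577, of which ZNF667 has the most CG dinucleotides (42) and ZNF415 the fewest (17).

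Both lines carried the profile of a breast epithelial line, though single markers differed between them. Of 10 epithelial markers 8 were measured, and 7 of them lay above the 50th percentile of the genes on every array. KRT5 had means of 9.11 (COH29) and 9.28 (control) in HCC1937+BRCA1, against 10.72 and 10.98 in HCC1937. KRT19 had 7.62 and 7.75 against 8.43 and 8.57. KRT14 was slightly lower in HCC1937+BRCA1 in both conditions, and EPCAM, CDH1, KRT7 and KRT8 were slightly higher. These differences were not tested here. Of 14 markers of blood, endothelium, fibroblasts, nerve and muscle, all measured, 10 lay below the 50th percentile on every array. The leukocyte gene PTPRC lay at percentiles 1.5 to 4.4 and the fibroblast gene LUM at 0.39 to 1.2, among the lowest of the 14. Another fibroblast gene, COL1A1, lay at percentiles 48.1 to 54.3 and so was not below the 50th on every array. The median level of these 14 markers was 6.71, 6.61, 6.81 and 6.73 in HCC1937+BRCA1 COH29, HCC1937+BRCA1 control, HCC1937 COH29 and HCC1937 control cells. The monocyte gene CD14 was lower in HCC1937+BRCA1, at group means of 6.7, 6.8, 9.5 and 10.6 in the same order. The endothelial markers PECAM1 (6.63, 8.11, 7.35 and 9.30) and CDH5 (6.91, 7.41, 7.48 and 8.75) were also lower in HCC1937+BRCA1 in both conditions, and lower with COH29 in both lines. The part of these genes in the results was not tested. BRCA1 was at 10.25 and 10.07 in HCC1937+BRCA1 cells with COH29 and 10.50 and 10.43 in their controls, and at 10.40 and 10.46 in HCC1937 cells with COH29 and 10.45 and 10.64 in HCC1937 controls. It did not pass the test between the lines, at -0.27 ± 0.10 (HCC1937+BRCA1 minus HCC1937, log2 ± SE) under COH29 with adjusted p = 0.0722 in limma. It was called lower in HCC1937+BRCA1 with the filter on dim genes (adjusted p = 0.0399), with limma's trend and robust options (0.0158) and with a crossed replicate block (0.0315). Whether the probe set reads the exogenous transcript is not stated, so this level does not check the labels. The replicate arrays of each group had r of 0.996 to 0.997 over all genes.

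ZNF667-AS1 stood at log2 intensities of 11.61 and 11.73 in HCC1937+BRCA1 cells given COH29, and at 11.57 and 11.51 in HCC1937+BRCA1 control cells. In HCC1937 it stood at 5.19 and 4.36 with COH29 and at 4.83 and 4.12 without. Every HCC1937+BRCA1 array was thus far above every HCC1937 array, whatever the treatment. Under COH29 the lines differed by 6.89 ± 0.27 on the log2 scale (HCC1937+BRCA1 minus HCC1937, SE, n = 2 arrays per group), a 119-fold difference (limma adjusted p = 3.36e-07). In bulk RNA, fewer cells with the transcript and less transcript per cell cannot be told apart. The difference was the highest of the 18417 line differences under COH29. It also ranked 1 in the untreated cells, at 7.07, but that difference is what the locus was chosen for.

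ZNF667, the protein-coding gene that starts next to ZNF667-AS1, differed less. It stood at 7.47 and 7.27 in HCC1937+BRCA1 cells with COH29 and at 7.49 and 7.22 in their controls. In HCC1937 it stood at 5.46 and 5.79 with COH29 and at 5.50 and 4.78 without. The lines did not overlap, while the treated and untreated arrays of each line did. Under COH29 the difference was 1.75 ± 0.22 (adjusted p = 0.000304), and in untreated cells it was 2.22.

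ZNF577 and ZNF649 stand next to each other and had similar line differences. ZNF577 was at 8.05 and 7.87 in HCC1937+BRCA1 cells with COH29 and at 8.10 and 7.97 in their controls, against 5.82 and 5.72 in HCC1937 cells with COH29 and 5.38 and 5.33 in HCC1937 controls. The spread within its groups was small, and the lines lay more than 2 log2 units apart under COH29, at 2.19 ± 0.10 (adjusted p = 7.17e-07). Without drug the difference was 2.68. ZNF649, whose protein represses reporters driven by serum response and AP-1 elements in human cells, was at 8.21 and 7.89 in HCC1937+BRCA1 cells with COH29 and at 8.46 and 8.55 in their controls. In HCC1937 it was at 5.00 and 5.69 with COH29 and at 5.29 and 5.13 without. The order of its HCC1937 groups was thus not resolved, since the COH29 arrays spanned both controls, while every HCC1937+BRCA1 array was higher. Its line difference was 2.70 ± 0.20 under COH29 (adjusted p = 1.52e-05) and 3.29 without.

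ZNF610, a KRAB zinc finger gene, was at 7.98 and 7.80 in HCC1937+BRCA1 cells with COH29 and at 8.16 and 7.96 in their controls. In HCC1937 it was at 5.57 and 5.43 with COH29 and at 5.55 and 5.24 without. Within each line the treated and untreated arrays overlapped, and between the lines none did. The difference was 2.39 ± 0.13 under COH29 (adjusted p = 2.18e-06) and 2.67 in untreated cells.

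ZNF415, whose protein represses p53- and AP-1-driven reporters in human cells, showed the largest untreated difference after ZNF667-AS1 among the 7 loci, at 3.91. It was at 7.98 and 7.64 in HCC1937+BRCA1 cells with COH29 and at 9.02 and 8.55 in their controls. In HCC1937 it was at 5.30 and 5.13 with COH29 and at 4.97 and 4.79 without. The 4 groups did not overlap, so their order was HCC1937+BRCA1 control, HCC1937+BRCA1 with COH29, HCC1937 with COH29 and HCC1937 control, from high to low. Under COH29 the lines differed by 2.59 ± 0.17 (adjusted p = 7.15e-06).

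ZNF826P, the pseudogene, had the smallest line difference of the 7 loci under COH29. It was at 6.58 and 6.26 in HCC1937+BRCA1 cells with COH29 and at 8.03 and 7.71 in their controls, against 5.76 and 5.51 in HCC1937 cells with COH29 and 5.42 and 5.22 in HCC1937 controls. Its 4 groups did not overlap either and followed the order of ZNF415. The line difference was 0.79 ± 0.15 under COH29 (adjusted p = 0.00341), against 2.54 without drug.

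**Figure D2:**
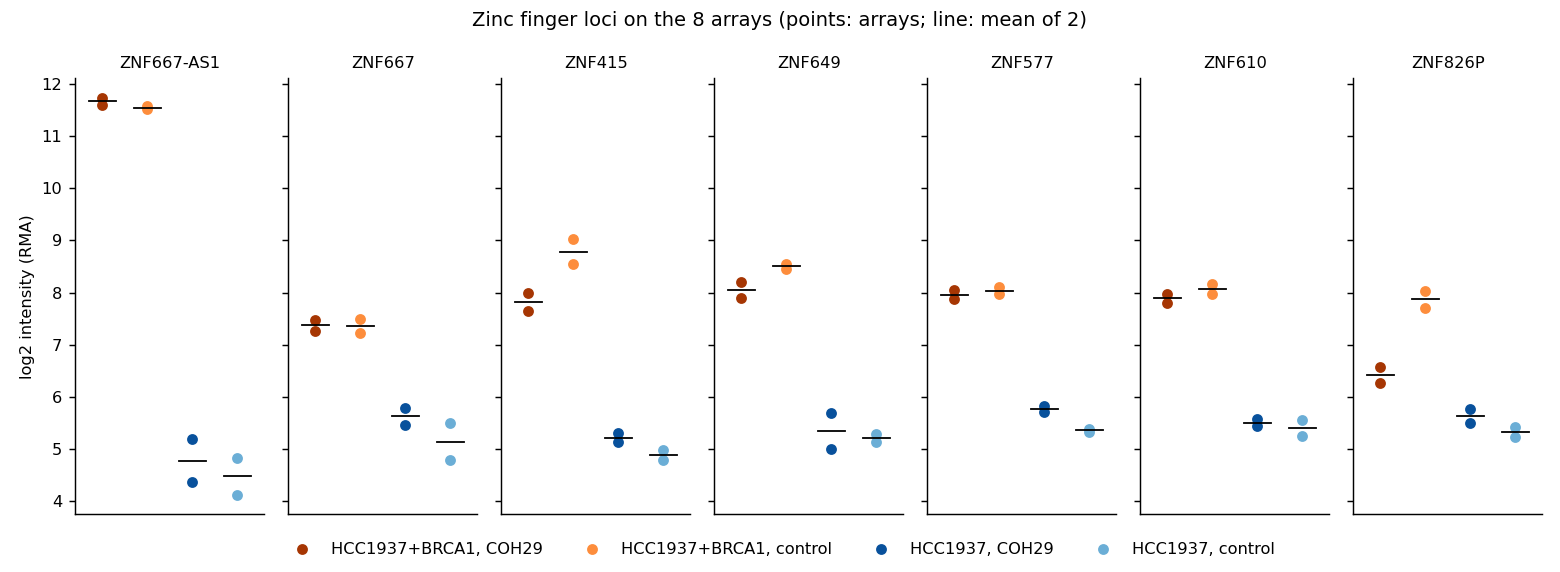
Log2 intensity (y axis) of each of the 7 loci in 4 groups, with 1 point per array and a line at the mean of the 2 arrays. All HCC1937+BRCA1 arrays lie above all HCC1937 arrays at each locus, with the widest gap at ZNF667-AS1 and the narrowest under COH29 at ZNF826P.

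In the COH29 arrays, which the rule for the loci did not read, all 7 were higher in HCC1937+BRCA1 than in HCC1937 at adjusted p under 0.05. Their median difference was 2.39. The loci were chosen with earlier results of these data known, so these arrays may not be independent of the choice. Of all genes tested, 14.2% were called higher in this comparison and 17.4% lower, and the median over all genes was 0.00. All 7 loci also had arrays that did not overlap between the lines under COH29, which held for 28.6% of all genes in this direction. The same lines were compared in both conditions, so this tests other arrays of the same cells and not other lines. Loci picked for a large untreated difference are more likely to be called here than genes at large. Of 163 other zinc finger genes called higher without drug, 122 were also called higher under COH29. All 7 calls were kept without any 1 array. In HCC1937 the values of the 7 loci ran from 4.12 to 5.82, at a median percentile of 15.1 of the genes on the arrays with COH29 and 13.1 without. Probe sets differ in affinity and no detection values were used here, so these low values may lie at background, and the differences would then be too small. Zinc finger genes resemble each other in sequence, and cross-reading between their probe sets was not checked.

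Averaged over both lines, COH29 changed 1 of the 7 loci. ZNF826P fell by 0.57 on the log2 scale (SE 0.11, adjusted p = 0.00239 in limma), a mean of effects of opposite sign in the lines. The other loci did not pass the threshold, where 19.3% of all genes rose and 22.8% fell. With arrays shifted to one median, 5220 genes rose and 3659 fell in place of 3556 and 4190. ZNF415 had a mean effect of -0.32 ± 0.12 (adjusted p = 0.0554). That of ZNF577 was 0.17 ± 0.07 (adjusted p = 0.0787). ZNF667, ZNF667-AS1, ZNF649 and ZNF610 had mean effects of 0.25, 0.21, -0.16 and -0.03, with adjusted p between 0.216 and 0.792. Single arrays decided some of these calls. ZNF415 passed without HCC1937+BRCA1 COH29 replicate 1 (adjusted p = 0.0327) or HCC1937+BRCA1 control replicate 2 (0.0123). ZNF649 passed at -0.33 without HCC1937 COH29 replicate 2 (adjusted p = 0.0243), and ZNF667 at 0.43 without HCC1937 control replicate 1 (adjusted p = 0.0218).

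Within each line the effects of COH29 are given as a description, since they share the control arrays on which the loci were chosen. In HCC1937+BRCA1 they ran from -1.45 ± 0.15 for ZNF826P and -0.98 ± 0.17 for ZNF415 to 0.12 ± 0.27 for ZNF667-AS1. ZNF649 was at -0.46 ± 0.20, ZNF610 at -0.17 ± 0.13, ZNF577 at -0.08 ± 0.10 and ZNF667 at 0.01 ± 0.22. ZNF826P, ZNF415 and ZNF649 were lower in every COH29 array than in every control array of this line, against 33.0% of all genes, and ZNF667-AS1 was higher in every array, against 35.4%. In HCC1937 all 7 effects were above 0, between 0.11 ± 0.13 for ZNF610 and 0.48 ± 0.22 for ZNF667. There ZNF415, ZNF577 and ZNF826P were higher in every COH29 array, against 33.8% of all genes, and 0 loci were lower in every array, against 28.6%. With only 7 loci, chosen on the control arrays, these counts are not a result about them. The effect of COH29 in HCC1937+BRCA1 minus that in HCC1937 was -1.75 ± 0.21 for ZNF826P and -1.31 ± 0.24 for ZNF415, and between -0.59 and -0.18 for the other 5. Of all genes, 0.956% passed the test of this difference, 0.543% higher and 0.413% lower, and nothing is read from this for the loci.

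**Figure D3:**
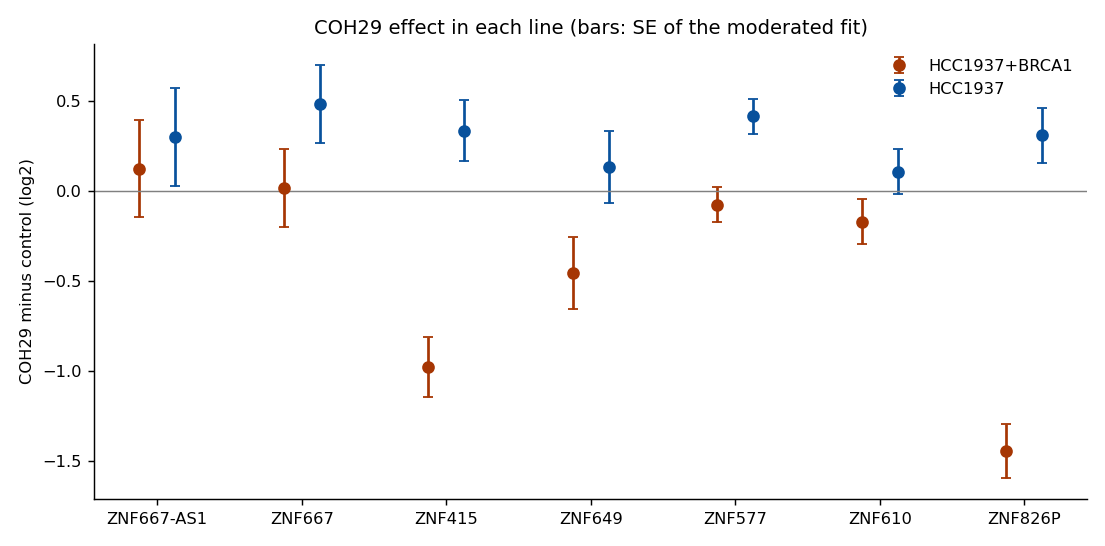
COH29 minus control (log2, y axis) for each of the 7 loci, in HCC1937+BRCA1 and HCC1937, with bars for the SE of the moderated fit. ZNF826P (-1.45) and ZNF415 (-0.98) lie lowest in HCC1937+BRCA1, and the effects in HCC1937 lie between 0.11 and 0.48.

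The genes around the 7 loci were also mostly higher in HCC1937+BRCA1. The 5 nearest tested genes on each side gave 50 genes, which were not part of the choice. Under COH29, 31 of them were called higher and 3 lower, with a median of 0.56, beside 14.2% higher and 17.4% lower among all genes. Without drug 28 were higher and 1 lower, beside 16.4% and 14.8% of all genes, and 26 were higher in both conditions. Of the 50 neighbours, 42 are zinc finger genes, and 30 of these were higher and 3 lower under COH29. All other zinc finger genes of chromosome 19, these 42 included, had 38.8% higher and 9.9% lower, a nearer background than all genes. Of the 8 others, 1 was higher and 0 lower, where 0 of either direction were called without drug. Apart from PPP2R1A (group means 11.66 to 12.06) these others were dim in both lines. Their group means ran from 4.60 (FPR2, HCC1937+BRCA1 control) to 6.02 (ERVV-1, HCC1937+BRCA1 with COH29). Such genes could hardly show a line difference, so their few calls do not set the zinc finger genes apart.

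Around ZNF667 and ZNF667-AS1, 6 of 10 neighbours were higher and 2 lower under COH29. The pseudogene ZNF542P was at 8.85 and 8.67 in HCC1937+BRCA1 with COH29 and at 8.90 and 8.68 in its controls, against 5.77 and 5.72 in HCC1937 with COH29 and 5.84 and 5.48 in HCC1937 controls. It was thus as clearly apart between the lines as the 7 loci, at 3.01 ± 0.13 (adjusted p = 6.72e-07). The next genes on either side, ZNF583 and ZNF582, and ZNF471 and ZFP28, differed by 0.82 ± 0.13, 0.58 ± 0.12, 1.53 ± 0.22 and 2.31 ± 0.14, each called, as was ZNF470 beyond them. The run of higher genes ended at ZSCAN5A (-0.51, adjusted p = 0.00471) on one side and ZNF71 (-0.13, adjusted p = 0.298) on the other. Only 1 of the neighbours was lower without HCC1937+BRCA1 COH29 replicate 1, HCC1937+BRCA1 COH29 replicate 2 or HCC1937 COH29 replicate 1.

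Around ZNF577 and ZNF649 the large differences lay on one side. On the side of ZNF649 the 5 next genes were all higher under COH29, with ZNF613 at 2.21 ± 0.17 (adjusted p = 2.14e-05) and ZNF350 at 1.32 ± 0.15 (adjusted p = 0.00018). Without drug 4 of the 10 neighbours of this locus were higher, and ZNF614 was not called (0.25, limma adjusted p = 0.168). ZNF613 was at 8.17 and 8.07 in HCC1937+BRCA1 with COH29 and at 5.61 and 6.20 in HCC1937 with COH29. On the side of ZNF577 lie the formyl peptide receptor genes, of which FPR3 differed by 0.25 ± 0.11 (adjusted p = 0.129) and FPR2 by -0.10 ± 0.15 (adjusted p = 0.688). FPR1, next to them, differed by 0.32 ± 0.09 (adjusted p = 0.0223). The large differences, as measured, thus ran from ZNF577 through the zinc finger genes. The receptor genes were dim in both lines. Their group means ran from 4.60 (FPR2, HCC1937+BRCA1 control) to 5.64 (FPR1, HCC1937+BRCA1 with COH29). Such levels may lie at background, where a line difference would not show, so an edge at ZNF577 was not resolved.

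Around ZNF610, 6 of 10 neighbours were higher and 0 lower. ZNF528, at 8.56 and 8.32 in HCC1937+BRCA1 with COH29 and at 5.70 and 6.08 in HCC1937 with COH29, differed by 2.55 ± 0.14 (adjusted p = 2.9e-06), and ZNF880 by 1.05 ± 0.10 (adjusted p = 7.01e-05). PPP2R1A, a phosphatase subunit gene within this stretch, was at 0.20 ± 0.09 (adjusted p = 0.12). Around ZNF415, 8 of 10 were higher and 0 lower. ZNF347 differed by 1.42 ± 0.16 and ZNF665 by 1.26 ± 0.16, and ERVV-1, an endogenous retroviral gene, by 0.13 ± 0.10 (adjusted p = 0.37). At ZNF826P, 5 of 10 were higher and 1 lower, and the neighbours' differences ran only from -0.72 (ZNF737) to 0.78 (ZNF90). ZNF626, 1 of the 5, differed by 0.37 (limma adjusted p = 0.0172) when read by its brightest probe set. With its probe sets averaged it was at -0.17 (limma adjusted p = 0.158). Of these 5 higher neighbours, 3 were called when HCC1937+BRCA1 COH29 replicate 2 or HCC1937 COH29 replicate 1 was left out.

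**Figure D4:**
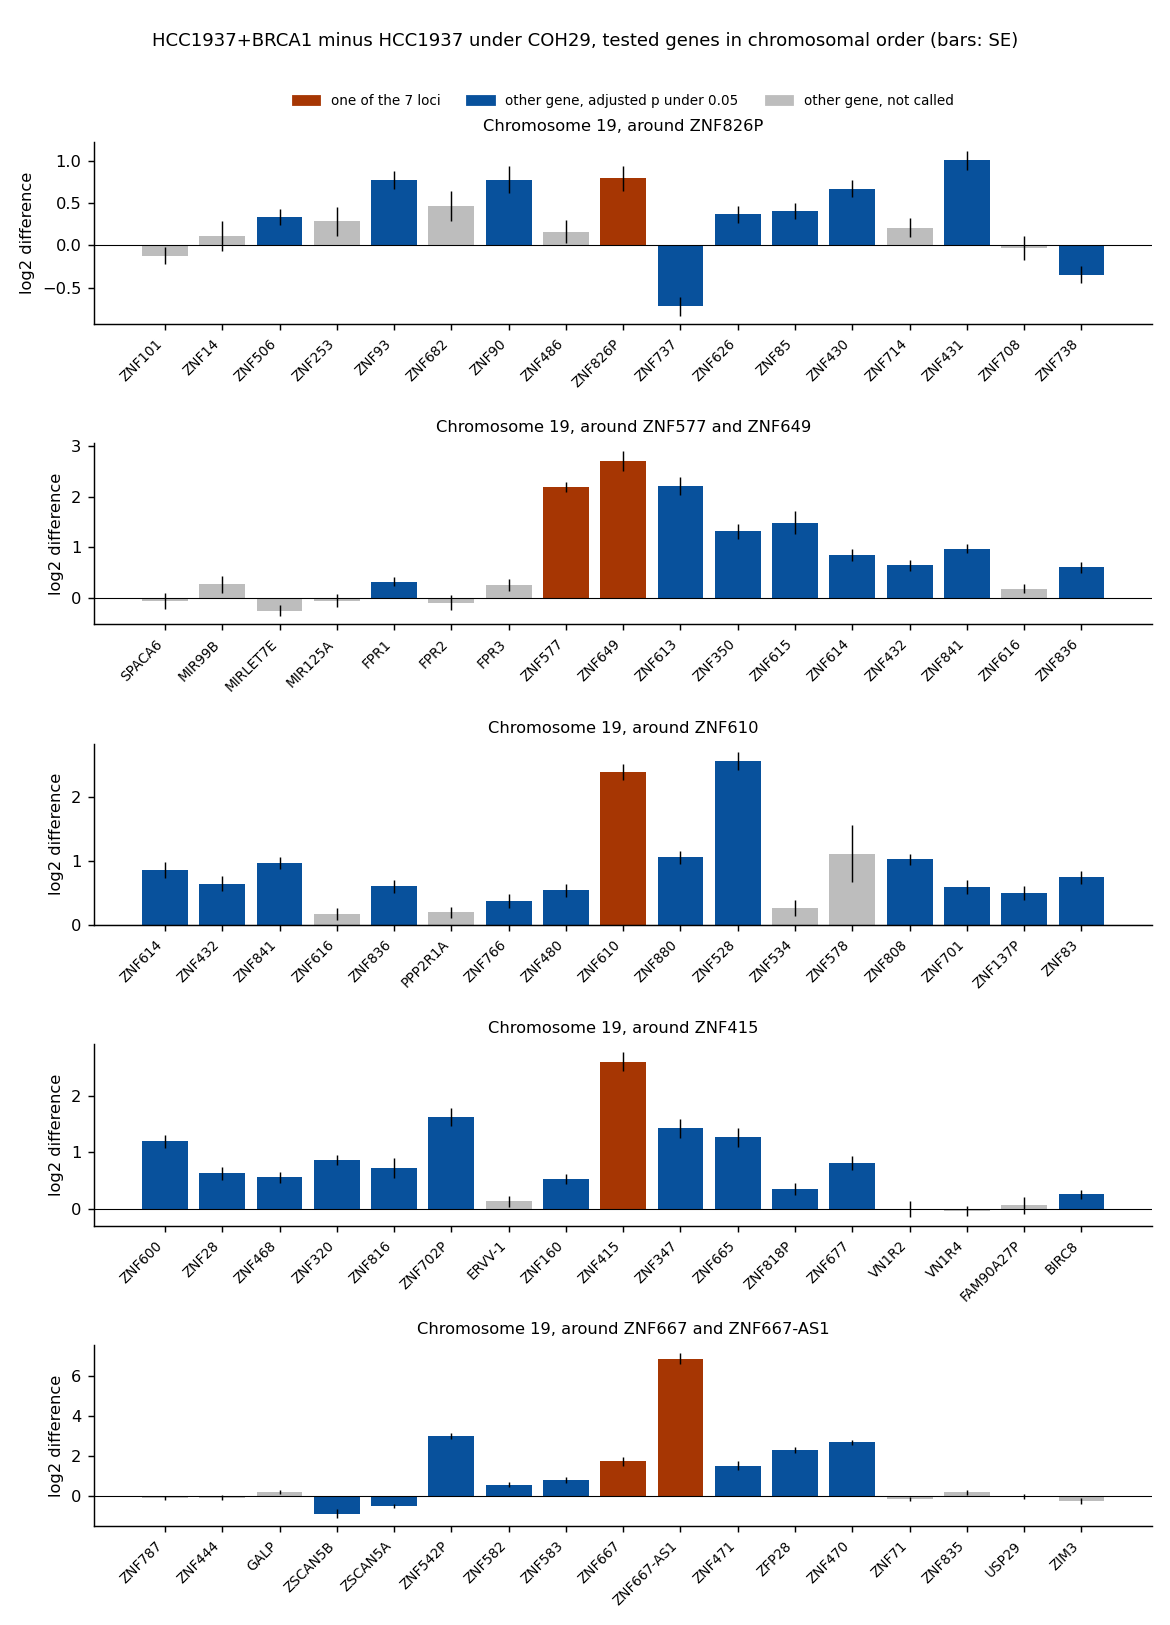
HCC1937+BRCA1 minus HCC1937 under COH29 (log2, y axis) for tested genes in their order on chromosome 19 around each locus, with lines for the SE and colours for the 7 loci, called genes and genes not called. Around ZNF577 and ZNF649 the receptor genes on the left, dim in both lines, lie near 0. The zinc finger genes on the right lie above 0. Around ZNF667-AS1 (6.89) the higher genes run from ZNF542P to ZNF470.

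Outside the 7 loci, 534 other zinc finger genes were tested, and 42 of the neighbours above are among them. Under COH29, 150 of them (28.1%) were higher and 75 (14.0%) lower in HCC1937+BRCA1, with a median of 0.09. Among all genes 14.2% were higher and 17.4% lower. The 75 became 46 without HCC1937 COH29 replicate 2. Without drug 163 were higher and 40 lower, beside 16.4% and 14.8% of all genes, and 122 were higher in both conditions. A split by chromosome, made after the loci were seen to lie on chromosome 19, placed most of the higher calls there. On chromosome 19, 94 of 242 (38.8%) were higher and 24 (9.9%) lower. These 242 include the 42 neighbours, of which 30 were higher and 3 lower, so the neighbour counts enter here again. On other chromosomes 56 of 292 (19.2%) were higher and 51 (17.5%) lower. Chromosome 19 genes outside the zinc finger list had 92 of 1059 (8.7%) higher and 129 (12.2%) lower. Without HCC1937 COH29 replicate 2 the lower counts became 14 and 32 for the zinc finger genes. For the remaining chromosome 19 genes 56 were higher without HCC1937+BRCA1 COH29 replicate 2 and 84 lower without HCC1937+BRCA1 COH29 replicate 1.

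The largest rises among the other zinc finger genes were all on chromosome 19. After ZNF542P came ZNF470 (2.71 ± 0.13), the readthrough ZNF625-ZNF20 (2.65 ± 0.09), ZNF528 and ZFP28. The probe set of ZNF625-ZNF20 may read its single genes as well. The largest falls lay elsewhere. ZFP42 (REX1), a marker of pluripotent stem cells on chromosome 4, was at 4.28 and 4.38 in HCC1937+BRCA1 with COH29 and 4.14 and 4.78 in its controls, against 8.46 and 8.78 in HCC1937 with COH29 and 9.23 and 9.21 in HCC1937 controls. It thus ran opposite to the 7 loci, at -4.29 ± 0.19 (adjusted p = 6.35e-07). ZNF33A, ZNF33B and ZNF248 on chromosome 10 and ZFP37 on chromosome 9 differed by -1.54, -1.13, -1.04 and -1.19. ZNF33A and ZNF33B are close paralogs.

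**Figure D5:**
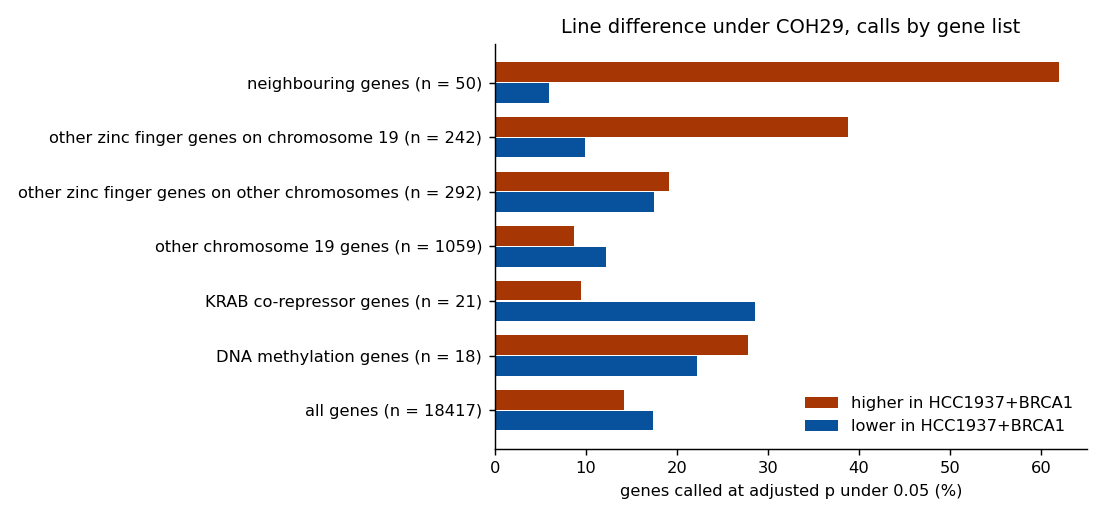
Share of genes called higher or lower in HCC1937+BRCA1 than in HCC1937 under COH29 (%, x axis) for each gene list, with the number measured. Neighbouring genes (62.0% higher, 6.0% lower) and zinc finger genes of chromosome 19 (38.8% and 9.9%) stand above all genes (14.2% and 17.4%) for higher calls. The chromosome 19 zinc finger list includes 42 of the neighbouring genes.

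KRAB zinc finger proteins act with co-repressors and heterochromatin proteins, whose genes formed a list of 21. Under COH29, 2 of these were higher and 6 lower in HCC1937+BRCA1, with a median of 0.00, beside 14.2% and 17.4% of all genes. Without drug 6 were higher and 3 lower, beside 16.4% and 14.8% of all genes. The 6 lower became 3 without HCC1937 COH29 replicate 2. MPHOSPH8, a subunit of the HUSH silencing complex, was at 7.73 and 7.28 in HCC1937+BRCA1 with COH29 against 8.94 and 9.06 in HCC1937 with COH29, a difference of -1.49 ± 0.14 (adjusted p = 6.02e-05). The histone methyltransferase gene SUV39H2 differed by -0.74 ± 0.08, the chromatin remodeller gene CHD3 by 0.82 ± 0.10, and ZNF274, whose protein recruits SETDB1 and which is also counted among the zinc finger genes, by 0.81 ± 0.09. The list fell more often under COH29. Averaged over both lines 14 of 21 fell and 0 rose, with a median of -0.37, beside 22.8% and 19.3% of all genes. TASOR and PPHLN1, further HUSH subunits, fell by 0.91 and 0.80 on the log2 scale, SUV39H1 by 0.90 and the SETDB1 partner gene ATF7IP by 0.70.

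Of 19 DNA methylation genes 18 were measured, and 5 (27.8%) were higher and 4 (22.2%) lower in HCC1937+BRCA1 under COH29, beside 14.2% and 17.4% of all genes. Of the higher calls 2 were left when HCC1937+BRCA1 COH29 replicate 2 or HCC1937 COH29 replicate 2 was dropped and 3 when HCC1937 COH29 replicate 1 was dropped, and of the lower calls 2 without HCC1937 COH29 replicate 2. Without drug 4 were higher and 3 lower, beside 16.4% and 14.8% of all genes. DNMT3B, a de novo DNA methyltransferase gene, was at 8.70 and 8.78 in HCC1937+BRCA1 with COH29 and at 8.18 and 8.03 in HCC1937 with COH29, a difference of 0.64 ± 0.09 (adjusted p = 0.000525). UHRF2 differed by 0.59 ± 0.08, TET1, which oxidises methylated cytosine, by -0.57 ± 0.09, and ZBTB4, which binds methylated DNA, by -0.36 ± 0.08. Averaged over both lines, COH29 lowered 11 of the 18 and raised 3, beside 22.8% and 19.3% of all genes. ZBTB4 fell by 1.00 on the log2 scale, TET1 by 0.76 and ZBTB38 by 0.65, and UHRF2 rose by 0.46 ± 0.06.

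The 7 loci varied together over the 8 arrays, with Pearson r between 0.84 (ZNF667 with ZNF826P) and 1.00 and a median of 0.98 over 21 pairs. These values describe groups that the choice of loci set apart, and many other genes correlate as well. Over the 8 arrays ZNF667-AS1 was most like TPM2, a tropomyosin gene (r = 0.998), and ZNF542P (r = 0.997). ZNF610 was most like ZNF542P (r = 0.999) and COL14A1 (r = 0.998), and ZNF649 most like LNX1 (r = 0.999) and PCDHB4 (r = 0.997). ZNF577 was most like DUOX1 (r = 0.997) and PCOLCE2 (r = 0.996), and ZNF667 most like RPS6 (r = 0.996) and FMNL2 (r = 0.993). The most alike to ZNF415 were NAALADL2 (r = 0.996) and GTF3C3 (r = 0.995), and to ZNF826P MICU3 (r = 0.995) and WDR12 (r = 0.989). Between 97 genes (ZNF826P) and 602 genes (ZNF610) had r over 0.95 with a locus.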

How the data were processed

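RNA of HCC1937 and HCC1937+BRCA1 cells, with or without COH29, was hybridised to 8 Affymetrix arrays, 2 per group. The authors deposited log2 intensities of 33297 probe sets. RMA and Partek are named without a version in the submitters' processing notes. RMA corrects background, equalises the arrays' distributions and summarises probes on the log2 scale, which can shrink differences of dim probe sets. Between arrays, the sorted values differed by 0.30 or less. No genome build, detection value, batch or scan date was used. Of the probe sets, 19460 are paired with exactly 1 gene by the platform annotation. Where a gene had several, the one brightest on average was taken, which left 18417 genes. Chromosomes, neighbouring genes and start-site windows came from RefSeq (GRCh38.p14), and 19429 of the probe sets matched by gene ID.

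All genes and all 8 arrays entered one linear model with a mean for each group, in limma 3.58.1 with R 4.3.3 (4 residual degrees of freedom). The threshold for a call was 0.05 on the Benjamini-Hochberg adjusted p. The line difference without drug chose the 7 loci and is not tested for them. They were tested in the line difference under COH29, which did not select them. Its SE pools the spread of all 8 arrays, the control arrays included, and the brightest probe set was taken over all 8 arrays. They were also tested in the mean COH29 effect of both lines. The estimate of that mean effect is uncorrelated with the line difference without drug only if the arrays vary alike. Effects within each line and their difference share the control arrays and are given without a test. The members and gene lists were chosen with earlier results of these data known. Named were the 7 loci, the 2 nearest tested genes on each side, the 2 genes most correlated with each locus, the 5 largest called differences each way among other zinc finger genes, and the 4 smallest p of the co-repressor and methylation lists. Other neighbours were named after their values were seen, and some names were left out for length. On simulated data with 18417 genes, the fit of the line difference under COH29 recovered 65.7% of changes of 0.5, 98.5% of changes of 1 and 100% of changes of 2 on the log2 scale. For the mean effect the shares were 92.5%, 100% and 100%. In these simulations 11 and 13 unchanged genes were called. Only 67, 67 and 66 genes were changed at the 3 sizes, with normal noise independent between genes and arrays. In the data 31.6% of all genes were called in the line difference under COH29, so these shares need not carry over. Alternatives were a filter at the 30th percentile of mean level, arrays shifted to one median, cyclic loess, limma's trend and robust options, the replicate number as a block, averaging each gene's probe sets, only the compared arrays, and leaving out each array. Python 3.11.15 made the tables (pandas 2.3.3) and plots (matplotlib 3.10.9).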

Additional observations from a re-analysis of the deposited data

Results flagged for a closer look

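At ZNF415 and ZNF826P the arrays with and without COH29 lay in opposite order in the lines. In HCC1937+BRCA1 every COH29 array was lower than every control array, as in 33.0% of all genes, and in HCC1937 every COH29 array was higher, as in 33.8%. The difference of effects (HCC1937+BRCA1 minus HCC1937, log2) was -1.31 for ZNF415 and -1.75 for ZNF826P. The loci were chosen for control arrays that are high in HCC1937+BRCA1 and low in HCC1937, and that choice alone favours this order, so it is a description and no result about the loci. The difference was not tested. The genes MICU3 (-0.99), NAALADL2 (-1.31), PCOLCE2 (-0.71) and WDR12 (-0.44) moved apart in the same way on every array. These were named for their likeness to a locus over the same arrays, so the fit's test of the difference is not read for them.

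Among the named genes of the co-repressor and methylation lists, DNMT3B and SUV39H2 were also flagged for their difference of effects. For DNMT3B it was 0.78 ± 0.12 (SE), with 8.70 and 8.78 in HCC1937+BRCA1 COH29 cells against 7.87 and 7.93 in their controls. In HCC1937 the gene was at 8.18 and 8.03 with COH29 against 8.07 and 8.02 in controls. For SUV39H2 the difference was -0.63 ± 0.11, with 9.04 and 8.96 in HCC1937+BRCA1 COH29 cells against 9.52 and 9.55 in their controls. In HCC1937 the gene was at 9.74 and 9.73 with COH29 against 9.64 and 9.63 in controls. Both were named for a small p in the line difference under COH29, which is a part of this difference of effects. That choice favours a large value, so the fit's test is not read for them either.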

How the results depend on the processing

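The line difference under COH29 kept its direction and call at all 7 loci under every alternative that tested them. ZNF667 and ZNF826P were left out by the filter at the 30th percentile, so 5 loci were counted there. Without any 1 array the differences ran from 6.48 to 7.31 for ZNF667-AS1, 1.58 to 1.91 for ZNF667, 2.42 to 2.77 for ZNF415, 2.36 to 3.05 for ZNF649, 2.10 to 2.28 for ZNF577, 2.30 to 2.48 for ZNF610 and 0.63 to 0.95 for ZNF826P. Leaving out an array can leave 1 sample in a group, which is then assumed to vary like the others.

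In the mean COH29 effect the fall of ZNF826P was kept (-0.68 to -0.49). The number of loci called higher became 1 with the filter or with arrays shifted to one median (ZNF577, adjusted p = 0.0481 and 0.0361), and ran from 0 to 1 without any 1 array. The number called lower became 2 with cyclic loess, eBayes with trend and robust, or the replicate block, through ZNF415 (adjusted p = 0.0336, 0.0325 and 0.00914), and ran from 1 to 2 without any 1 array. The effect of ZNF610 turned to 0.017 with arrays shifted to one median, and without any 1 array ran from -0.11 to 0.044. That of ZNF649 ran from -0.33 to 0.012. The causes were not tested. Co-repressor genes called higher became 1 with the filter, shifted medians or eBayes with trend and robust, and 2 with cyclic loess. Neighbours of ZNF415 called higher became 5, and those of ZNF667 and ZNF667-AS1 became 3 higher and 1 lower, with the filter, which left fewer genes. Without any 1 array, the line difference under COH29 called 46 to 72 other zinc finger genes lower, 3 to 6 co-repressor genes lower, and 2 to 5 DNA methylation genes higher and 2 to 4 lower.

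The replicate numbers are not stated to pair the arrays. Same-numbered deviations correlated between -0.20 and 0.26 over group pairs. With the replicate number as a block, ZNF415 in the mean effect was the only locus whose call changed. With the numbers crossed between the lines, chosen after seeing the data, 7 loci were called higher in the line difference and 1 lower in the mean effect. Having only 2 arrays in each group limits the precision, and the low HCC1937 values limit what their differences show.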
